A study of Mus musculus with 16 samples.

Results

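The mitochondrially encoded genes are the 37 genes carried by the mouse mitochondrial chromosome, chosen by gene symbols that start with mt- among the 55421 genes counted in every library. They are 13 protein-coding genes, 2 ribosomal RNA (rRNA) genes and 22 transfer RNA (tRNA) genes. All 37 had a row in each of the 16 libraries, and a filter on low counts left 34 for testing in WAT (mt-Tf, mt-Tq and mt-Ts1 were removed) and 36 in liver (mt-Ts1 was removed).

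The mitochondrial chromosome is copied into long precursor RNAs from both of its strands. The tRNAs lie between most of the other genes, and cutting the tRNAs out of the precursors releases the rRNAs and mRNAs. The rRNAs lie near the start of the heavy-strand precursor, and their ratio to the mRNAs is set by transcription and by how fast each RNA decays. The 13 proteins are subunits of the respiratory chain (complexes I, III and IV) and of ATP synthase, and in macrophages the activity of that chain is known to differ between activation states.

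RNA sequencing was done on RNA labelled as coming from macrophages of WAT (white adipose tissue) or liver of C57BL/6 mice fed HFD (high-fat diet). The libraries formed 8 groups of 2, set by tissue, genotype and treatment. The genotypes were GPR132fl/fl (fl/fl below), which carry a floxed receptor gene with no Cre, and Lyz2_cre+/_GPR132fl/fl (CKO below), in which Cre is driven by Lyz2, a gene of the myeloid lineage. Mice of each genotype received vehicle or NOX_6_18, an antagonist of the receptor. All 8 groups thus shared the floxed gene and the diet, and the labels state neither the age of the mice nor that the paired libraries of a group are separate animals. Every p-value below therefore measures only the spread between libraries, which may be technical.

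The WAT libraries held 48348395 to 58396991 counts each and the liver libraries 45624957 to 60761705, and the tRNAs rested on far fewer of these than the mRNAs, which limits the precision of their fold changes. Counts for the targeted gene, Gpr132, were 2120 to 3371 in the 2 WAT libraries labelled CKO on vehicle and 3200 to 3543 in those labelled fl/fl on vehicle, and in liver 84 to 115 against 183 to 249. In fl/fl liver on NOX_6_18 they were 75 to 128, so Gpr132 does not separate the libraries by genotype label, and CKO means labelled CKO throughout. Gene-level counts also include parts of the gene that a deletion would leave. The summed level of 10 macrophage markers was 6280 to 9800 CPM (counts per 1000000, TMM-scaled) in WAT, where 5 fibroblast markers summed to 8780 to 17100 CPM. In liver the 10 macrophage markers summed to 1570 to 1640 CPM, 5 endothelial markers to 2870 to 3080 CPM and 10 hepatocyte markers to 2690 to 3080 CPM, so neither tissue held macrophage RNA alone. None of the macrophage markers was at 0 in all libraries of either tissue. Both fl/fl vehicle libraries of each tissue differed from the other 6 in these markers: in WAT, 8 male germ cell markers summed to 23.6 to 28.0 CPM in them and 1000 to 1110 CPM in the other 6, and in liver 6 erythroid markers summed to 7660 to 8080 CPM against 4100 to 4510 CPM.

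The sequences below are those on which the liver results turn, read from GENCODE M21 transcripts for GRCm38 and written 5′ to 3′ as DNA. The first 4 are neighbouring tRNA genes for alanine, asparagine, cysteine and tyrosine, all read from the light-strand precursor and all higher in 6 of 8 liver libraries. Their anticodons are in capitals.
mt-Ta: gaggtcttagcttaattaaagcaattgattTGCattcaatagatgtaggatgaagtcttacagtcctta
mt-Tn: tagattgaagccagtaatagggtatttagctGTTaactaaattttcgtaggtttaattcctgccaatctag
mt-Tc: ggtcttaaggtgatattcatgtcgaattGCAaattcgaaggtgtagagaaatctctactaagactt
mt-Ty: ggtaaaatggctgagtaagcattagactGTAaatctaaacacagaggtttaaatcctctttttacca
They lie on the minus strand of the mitochondrial chromosome (GRCm38), mt-Ta at M:5018-5086, mt-Tn at M:5089-5159, mt-Tc at M:5192-5257 and mt-Ty at M:5260-5326, just before the mt-Co1 gene.

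The next sequences concern mt-Atp6, which encodes a subunit of ATP synthase and whose liver counts were uneven. Its first 43 bases are also the last bases of mt-Atp8, shown in capitals at the end of that gene (M:7897-7969, plus strand).
mt-Atp8 end: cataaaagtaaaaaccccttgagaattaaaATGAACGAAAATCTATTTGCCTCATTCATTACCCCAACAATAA
A nuclear gene model, Gm10925, at 24613974 to 24614651 on the minus strand of chromosome 1, is identical to the first 678 of the 681 bases of mt-Atp6. The models differ only in the closing stop codon, shown in lower case in the gene's end (M:8545-8607, plus strand) and absent from the gene model of the copy; capitals mark the shared bases.
mt-Atp6 end: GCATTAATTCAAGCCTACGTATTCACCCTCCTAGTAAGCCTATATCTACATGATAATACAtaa
Gm10925 end: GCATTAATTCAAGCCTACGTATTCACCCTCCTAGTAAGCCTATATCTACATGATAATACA

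Gm10925 is 1 of 7 unprocessed pseudogene models on chromosome 1, between 24611535 and 24616197 on the minus strand, that repeat stretches of 7 of the 13 mitochondrial mRNAs. Of the copies, 5 were identical over the whole aligned stretch: Gm10925 for mt-Atp6, Gm28437 for mt-Co3 over 783 bases, Gm28661 for mt-Co2 over 681, Gm28439 for mt-Nd4 over its first 876, and Gm10222 for mt-Nd4l over 294. Gm29216 matched the last 483 bases of mt-Co1 with 1 substitution, A1066T (the mt-Co1 base, its position from the first base of the gene, and the base of the copy). Gm28438 matched 345 bases of mt-Nd3 with 1 substitution, T3C, in capitals here.
mt-Nd3 window: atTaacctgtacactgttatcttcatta
Gm28438 window: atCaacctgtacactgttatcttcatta
A read that lies wholly in an identical stretch cannot be placed on the mitochondrial or the nuclear copy by its letters, while one that covers either substitution can. For 4 of the mRNAs whose copy spans nearly the whole gene, mitochondrial and copy counts were of similar size. mt-Co3 had 0.955 to 1.119 times the counts of Gm28437 in liver and 1.004 to 1.018 times in WAT, mt-Co2 had 1.08 to 1.174 and 1.015 to 1.019 times those of Gm28661, mt-Nd4l 1.044 to 1.177 and 1.01 to 1.024 times those of Gm10222, and mt-Nd3 1.046 to 1.381 and 1.039 to 1.067 times those of Gm28438. Where the copy repeats only part of the gene the ratio was larger, at 2.456 to 2.555 in liver and 2.39 to 2.637 in WAT for mt-Nd4 (63.6% of its length repeated) and 12.97 to 14.24 and 10.87 to 12.44 for mt-Co1 (31.3%). mt-Atp6 was uneven in liver and is described with its copy further on. How reads with several equally good positions were counted is not given in the sources used here, so the levels of these 7 mRNAs are uncertain. mt-Nd1, mt-Nd2, mt-Atp8, mt-Nd5, mt-Nd6 and mt-Cytb matched no gene model at over 99% identity in the search. It covered only annotated gene models with counts and stretches of at least 100 bases, so copies outside these were not looked for. The last 43 bases of mt-Atp8 lie within the stretch shared with Gm10925. The other 9 nuclear models found by sequence search had 90.673% to 97.605% identity and at most 17687 counts in a library.

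The share of all counts from the 37 genes differed between the tissues. It was 42.96% to 44.88% in the 8 liver libraries and 2.313% to 3.612% in the 8 WAT libraries, with means of 44.02% ± 0.759 (SD, n = 8) and 3.163% ± 0.429 (SD, n = 8). The groups did not overlap, and the difference of -40.9 percentage points (WAT minus liver) gave a 2-sided exact permutation p of 0.000155 (adjusted 0.000775), the smallest that 8 against 8 allows. The 7 nuclear copies held a further 10.11% to 11.04% of liver counts and 0.5817% to 0.9417% of WAT counts. With them the share was 53.23% to 55.91% in liver. In bulk RNA a smaller share of cells rich in mitochondria and fewer mitochondrial transcripts per cell cannot be told apart.

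Within a tissue the share did not pass the test by treatment or by genotype. In liver it averaged 43.74% ± 0.592 (SD, n = 4) on NOX_6_18 and 44.29% ± 0.89 (SD, n = 4) on vehicle (2-sided exact permutation p = 0.343, Benjamini-Hochberg adjusted 0.429 over 5 tests of the share). Liver libraries labelled CKO averaged 43.64% ± 0.791 (SD, n = 4) against 44.39% ± 0.588 (SD, n = 4) in fl/fl (exact permutation p = 0.229, adjusted 0.382). In WAT the mean was 3.311% ± 0.0873 (SD, n = 4) on NOX_6_18 and 3.015% ± 0.602 (SD, n = 4) on vehicle (exact permutation p = 0.429, adjusted 0.429), and 3.375% ± 0.179 (SD, n = 4) in CKO against 2.952% ± 0.527 (SD, n = 4) in fl/fl (exact permutation p = 0.229, adjusted 0.382). The smallest p that 4 against 4 allows is 0.0286. The WAT spread came from the fl/fl vehicle group, whose libraries held 2.726% and 2.313%, below the 3.211% to 3.612% of the other 6.

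**Figure D1:**
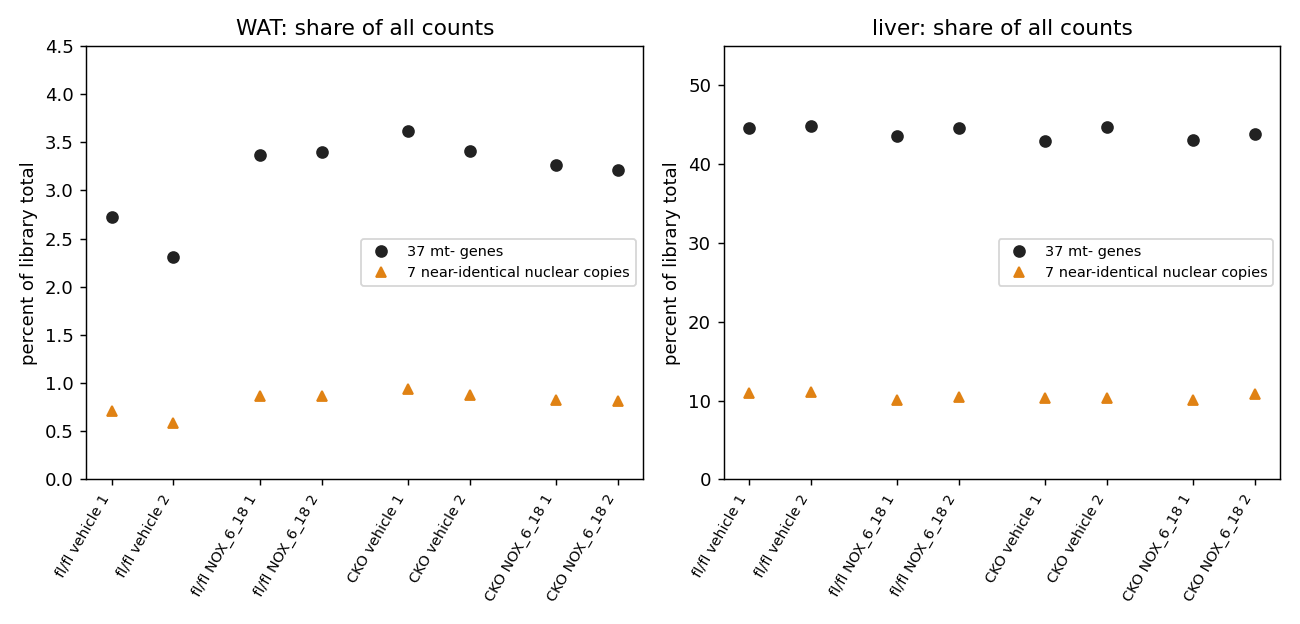
Share of all counts in each library (vertical axis, percent of the library total; each panel has its own scale) from the 37 mitochondrial genes (circles) and from the 7 near-identical nuclear copies (triangles), by group and replicate number. The liver shares lie between 42.96% and 44.88%, and in WAT the fl/fl vehicle libraries (2.726% and 2.313%) lie below the other 6.

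Nearly all of these counts were mRNA. In liver the mRNAs held 42.27% to 44.47% of the library, the rRNAs 0.3286% to 0.646% and the tRNAs 0.06092% to 0.08949%. In WAT the mRNAs held 2.252% to 3.531%, the rRNAs 0.05523% to 0.07389% and the tRNAs 0.005717% to 0.007076%. The labels do not say whether rRNA was depleted or mRNA selected, and either step would set the measured ratio of rRNA to mRNA.

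The balance among the 13 mRNAs was compared per base of gene length, as a percent of their summed counts per base. mt-Co1, the catalytic core subunit of complex IV, was the most abundant in both tissues, with a median of 23.57% in WAT (range 23.11% to 24.18%, 8 libraries) and 23.5% in liver (20.86% to 24.32%). Next in liver came mt-Cytb, the complex III subunit, at 13.23% (12.33% to 14.06%), and mt-Atp8, the other ATP synthase subunit, at 10.39% (9.809% to 11.35%). In WAT these stood in the other order, with mt-Atp8 at 11.11% (10.38% to 11.43%) and mt-Cytb at 10.3% (9.511% to 10.65%), ranges that overlap each other. The complex I subunit mt-Nd3 was lowest in WAT at 1.515% (1.397% to 1.62%). The light-strand mRNA mt-Nd6 was at 2.434% in WAT and 1.945% in liver. Counts on the nuclear copies are left out here and below, so the order under mt-Co1 depends on how shared reads were assigned. In WAT the median CPM per kilobase was 2893 for mt-Co2 and 2858 for its copy, beside 3545 for mt-Atp8 and 3351 for mt-Cytb. It was 482.9 for mt-Nd3 and 462.4 for its copy, beside 782.6 for mt-Nd6.

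The largest contrast in balance outside mt-Atp6 was in mt-Nd2, a complex I subunit, with 7.731% to 9.446% of the per-base sum in liver and 5.265% to 5.52% in WAT. The ranges of the tissues also did not overlap for mt-Nd4l, mt-Nd4 and mt-Cytb, which were higher in liver, and for mt-Nd1, mt-Co2, mt-Nd5 and mt-Nd6, which were higher in WAT. mt-Nd3 was higher in liver (1.661% to 2.039%). For mt-Co1, mt-Atp8, mt-Co3 and mt-Atp6 the ranges overlapped. mt-Atp6 varied most, from 1.308% to 8.553% within liver against 8.467% to 9.454% in WAT. This comparison is a description with no test, and a low mt-Atp6 raises the percent of every other mRNA in the same library.

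**Figure D2:**
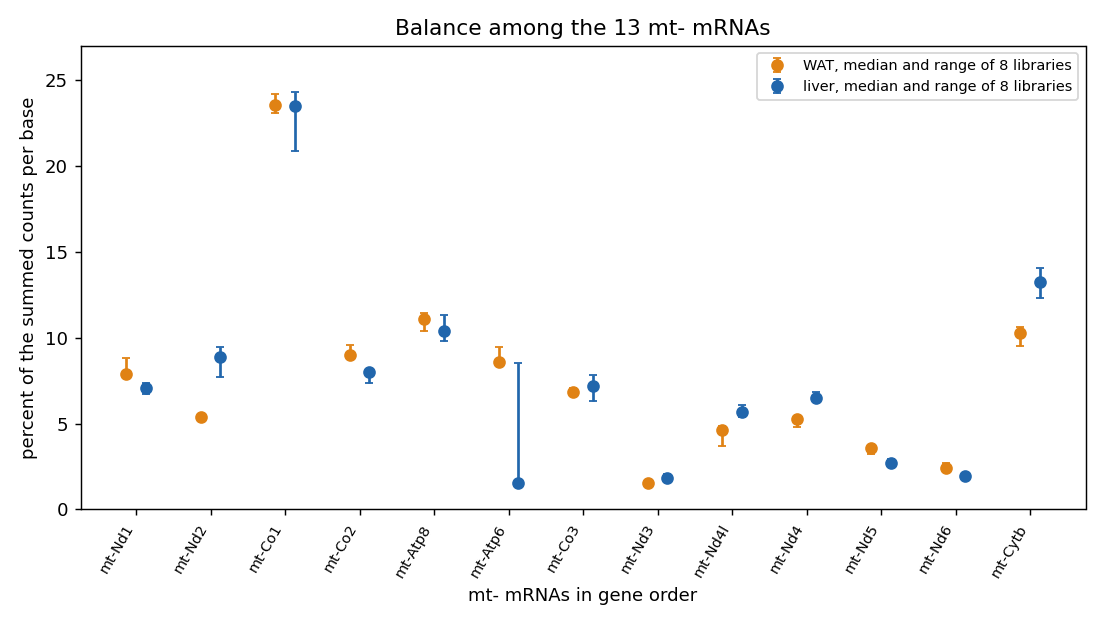
Percent of the summed counts per base (vertical axis) held by each of the 13 mitochondrial mRNAs in gene order, in WAT (orange) and liver (blue); points are medians and bars the lowest and highest of 8 libraries. mt-Co1 leads in both tissues (23.57% and 23.5%), mt-Nd2 is higher in liver, and mt-Atp6 spans 1.308% to 8.553% in liver.

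On vehicle in fl/fl mice, 35 of 36 mitochondrial genes tested were lower in WAT than in liver and none was higher, where 16.5% of all 26751 genes tested were lower and 21.6% higher (edgeR's quasi-likelihood test, Benjamini-Hochberg adjusted p under 0.05). The exception was mt-Tf, the phenylalanine tRNA, at a log2 fold change of -1.36 ± 0.56 (SE, edgeR adjusted p = 0.0791). Among mRNAs, mt-Co1 fell by 5.12 ± 0.05 on the log2 scale (adjusted p = 6.97e-15), mt-Nd5 gave -4.77 ± 0.05 and mt-Cytb -5.63 ± 0.07. Scaled within each tissue, mt-Co1 stood at 10670 and 9353 CPM in WAT and at 166000 and 167100 CPM in liver. The fold changes come from a scaling over all 16 libraries, so they cannot be read from these CPM. Their size depends on that scaling. With library totals only, the median log2 fold change over all genes was 0.95, against 0.0 in the main fit. The rRNAs differed less, mt-Rnr1 (12S rRNA) by -4.09 ± 0.14 and mt-Rnr2 (16S rRNA) by -2.86 ± 0.09. The tRNA fold changes ran from -7.05 (mt-Tq, glutamine) to -1.36. mt-Atp6 was at -2.50 ± 0.55 (edgeR adjusted p = 0.00295) against fl/fl vehicle liver libraries that were themselves low in it, and with limma-voom it did not pass (-2.52, adjusted p = 0.17).
Scaled to the 12 mRNAs other than mt-Atp6, 21 of the 36 were higher in WAT and 7 lower, so the direction holds relative to all RNA and not within the mitochondrial transcripts. That scaling gave 22584 higher and 279 lower of all 26751 genes, with a median log2 fold change of 5.21.

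In liver, the rRNAs and a block of tRNAs were lower in the fl/fl vehicle libraries than in all 6 other libraries. The mt-Rnr2 level in CPM was 1587 and 1670 for fl/fl on vehicle, 3149 and 3257 in fl/fl on NOX_6_18, 3085 and 3485 in CKO on vehicle, and 3177 and 3279 in CKO on NOX_6_18. The 2 fl/fl vehicle libraries were low and did not overlap with the rest, as for 16 of the 37 members and 8.54% of all liver genes with a count. mt-Rnr1 stood at 1692 and 1797 CPM for fl/fl on vehicle and at 2799 to 3111 CPM in the other 6. On NOX_6_18 in fl/fl liver, mt-Rnr2 rose by 0.98 ± 0.06 (log2, SE; edgeR adjusted p = 3.45e-05) and mt-Rnr1 by 0.73 ± 0.05 (adjusted p = 6.82e-05). In CKO against fl/fl on vehicle the rises were 1.01 ± 0.06 and 0.77 ± 0.05.

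Altogether 11 of the 36 genes rose and 3 fell in fl/fl liver on NOX_6_18, where 3.78% of all 19515 genes tested rose and 1.74% fell. Comparing CKO with fl/fl on vehicle, also 11 rose and 3 fell, where 3.96% and 1.83% of all liver genes did. The 14 genes were the same in both comparisons. The comparisons share the fl/fl vehicle libraries, so they are not independent of each other. The median log2 fold change over the 36 members was 0.24 and 0.26, beside 0.0 and -0.01 over all genes.

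The tRNAs that rose included the 4 light-strand neighbours printed above. mt-Tn, the asparagine tRNA, was at 35.47 and 34.46 CPM in fl/fl vehicle liver and at 65.14 to 71.67 CPM in the other 6. mt-Tc, the cysteine tRNA, was at 29.93 and 30.23 CPM against 56.96 to 59.84 CPM. mt-Ta, the alanine tRNA, was at 18.16 and 17.32 CPM against 32.15 to 37.44 CPM, and mt-Ty, the tyrosine tRNA, at 23.14 and 22.92 CPM against 41.75 to 44.5 CPM. For all 4 the fl/fl vehicle libraries were low and did not overlap with the others, as for 8.54% of all liver genes with a count. Their log2 fold changes on NOX_6_18 in fl/fl liver were 0.97 ± 0.07 for mt-Tn (edgeR adjusted p = 0.000102), 0.94 ± 0.06 for mt-Tc (7.15e-05), 0.97 ± 0.09 for mt-Ta (0.000567) and 0.92 ± 0.07 for mt-Ty (0.000149). In CKO against fl/fl on vehicle they were 0.98, 0.97, 0.95 and 0.90.

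The other 5 tRNAs that rose were mt-Ti for isoleucine (0.88 ± 0.15 and 0.88 ± 0.15 in the 2 comparisons), mt-Tw for tryptophan (0.77 ± 0.16 and 0.91 ± 0.16), mt-Tq for glutamine (0.59 ± 0.12 and 0.65 ± 0.12), mt-Tl1, a leucine tRNA (0.48 ± 0.07 and 0.49 ± 0.07), and mt-Tm for methionine (0.38 ± 0.06 and 0.36 ± 0.06). Their levels ranged widely, with mt-Tm at 68.13 and 65.35 CPM in fl/fl vehicle liver against 84.74 to 88.17 CPM in the other 6, and mt-Tw at 3.387 and 3.089 CPM against 4.979 to 6.339 CPM. With a trend of fold change on gene GC content and length removed, mt-Ti, mt-Tw, mt-Tq, mt-Tl1 and mt-Tm no longer passed in either comparison, and mt-Rnr1, mt-Rnr2, mt-Ta, mt-Tn, mt-Tc and mt-Ty still did. That correction gave 6 higher and 8 lower members in each comparison, and scaling to the 12 mRNAs other than mt-Atp6 gave 17 higher and 2 lower with NOX_6_18 and 14 and 1 with CKO. Over all 19515 genes the correction gave 769 higher and 335 lower with NOX_6_18 and 794 and 341 with CKO. The scaling gave 1083 and 196 with NOX_6_18 and 903 and 208 with CKO.

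All 11 genes that rose in liver lie before mt-Co1 in the order of the chromosome, a split chosen after their values were seen. Of the 15 tested genes before mt-Co1, 11 rose in each comparison and the 4 others were mt-Tf, mt-Tv, mt-Nd1 and mt-Nd2. Of the 21 from mt-Co1 on, none rose and 3 fell. The split did not hold when scaled to the 12 mRNAs, where mt-Atp6 (2.55), mt-Tg (1.34), mt-Te (0.36), mt-Nd6 (0.25) and mt-Nd5 (0.11) also rose with NOX_6_18 in fl/fl, and mt-Te (0.36) and mt-Tp (0.26) with CKO, all of them after mt-Co1. mt-Nd2, before it, then rose in both (0.31 and 0.25). The stretch before mt-Co1 holds genes of both strands, since mt-Tq, mt-Ta, mt-Tn, mt-Tc and mt-Ty are read from the light strand and the other 6 that rose from the heavy strand. The 3 other light-strand genes tested in liver, mt-Nd6, mt-Te and mt-Tp, lie later and did not pass under TMM scaling (log2 fold changes of 0.15 ± 0.07, 0.26 ± 0.07 and 0.13 ± 0.06 on NOX_6_18 in fl/fl), but scaled to the 12 mRNAs mt-Nd6 (edgeR adjusted p = 0.0242) and mt-Te (0.00944) passed with NOX_6_18 and mt-Te (0.0104) and mt-Tp (0.0421) with CKO. The strand setting of the counting is not given in the sources used here, and genes as short as tRNAs can also collect reads from uncut precursors, so mature tRNAs and precursors cannot be told apart.

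The mRNAs before mt-Co1, mt-Nd1 and mt-Nd2, gave log2 fold changes of -0.03 ± 0.03 and 0.20 ± 0.06 on NOX_6_18 in fl/fl liver. The 3 mRNAs that fell were mt-Co3 (-0.29 ± 0.03 and -0.22 ± 0.03 in the 2 comparisons, edgeR adjusted p = 0.00111 and 0.00489), mt-Co1 (-0.18 ± 0.02 and -0.13 ± 0.02) and mt-Cytb (-0.15 ± 0.03 and -0.13 ± 0.03). mt-Co3, a complex IV subunit, was at 26690 and 27280 CPM in fl/fl vehicle liver and at 21400 to 24410 CPM in the other 6. Its copy Gm28437, identical over 783 bases, gave -0.08 ± 0.04 and -0.12 ± 0.04, which did not pass. Scaled to the 12 mRNAs, mt-Cytb no longer passed in either comparison (-0.05 and -0.05), nor did mt-Co1 in CKO against fl/fl (-0.05). Both are large parts of that sum, with liver medians of 15.54% for mt-Cytb and 36.56% for mt-Co1, so the scaling itself shrinks their changes.

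**Figure D3:**
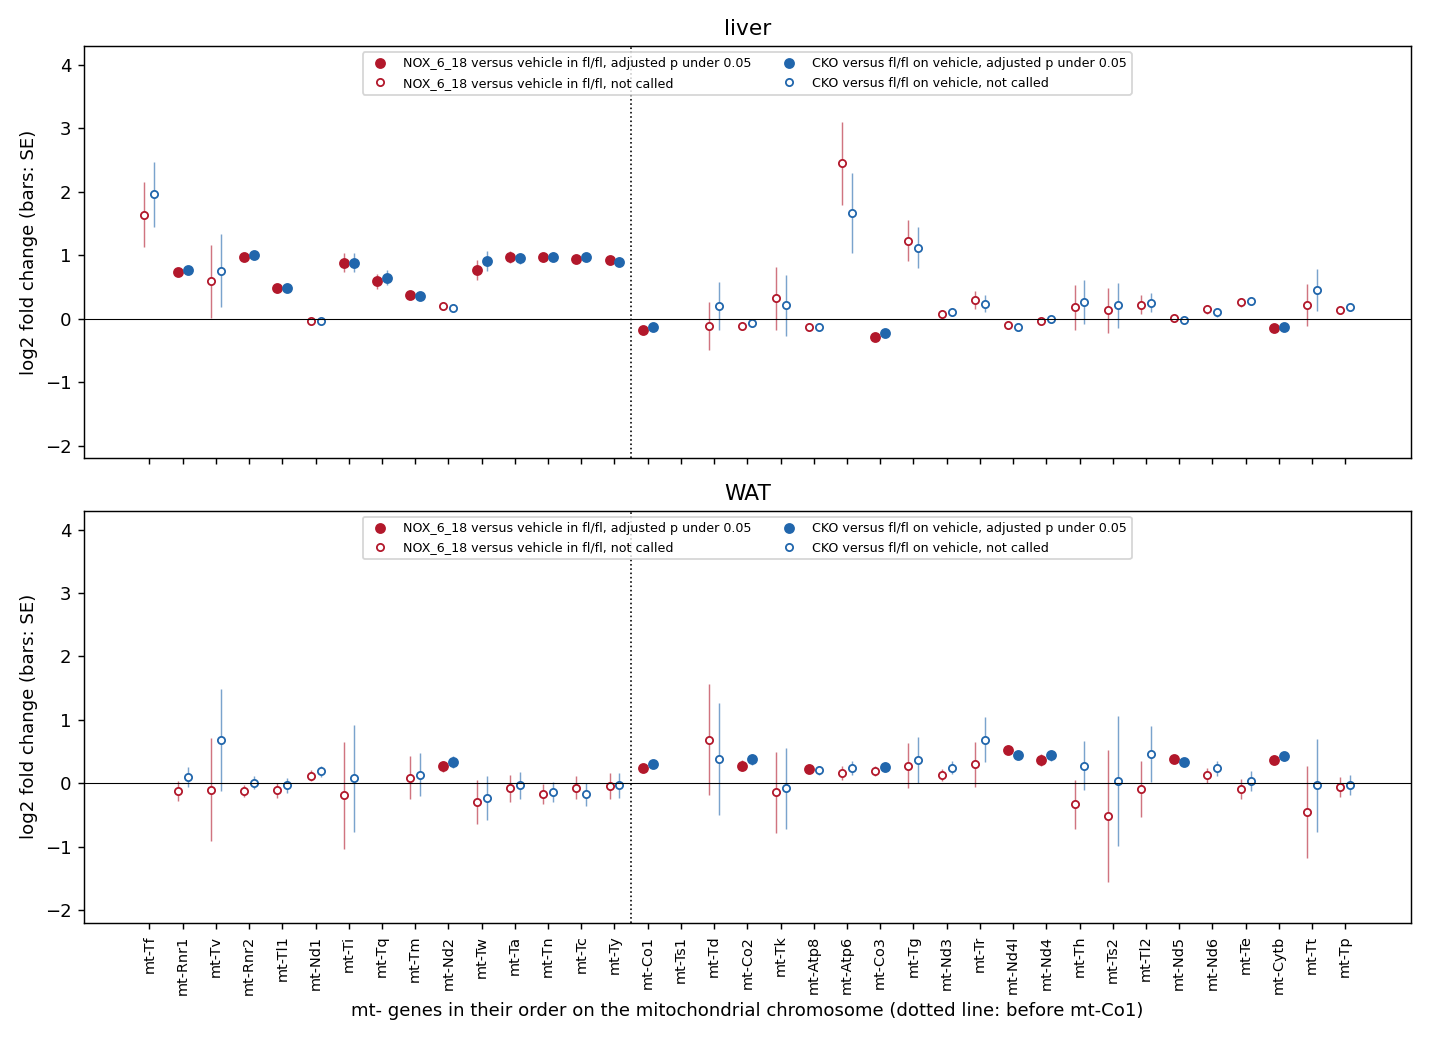
Log2 fold change (vertical axis, bars are SE) of each tested mitochondrial gene in chromosome order for liver (top) and WAT (bottom), for NOX_6_18 against vehicle in fl/fl (red) and CKO against fl/fl on vehicle (blue); filled points passed an adjusted p of 0.05. Under this TMM scaling, the 11 filled points above 0 in liver lie before mt-Co1 (dotted line) and the 3 below 0 at or after it, a split that scaling to the 12 mRNAs does not keep, while in WAT the filled points are mRNAs.

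Relative to the mRNAs, the rRNAs moved in opposite directions in the tissues. In liver there were 0.7506 and 0.7827 rRNA counts per 100 counts of the 12 mRNAs in fl/fl on vehicle and 1.43 to 1.556 in the other 6. In WAT the fl/fl vehicle libraries had 2.842 and 2.609 and the other 6 had 1.976 to 2.253. Libraries of fl/fl on vehicle did not overlap with the others in either tissue, being low in liver and high in WAT. The summed mt-Ta, mt-Tn, mt-Tc and mt-Ty counts per 1000 mRNA counts did the same, at 0.2369 and 0.2442 against 0.4733 to 0.5048 in liver and at 0.6622 and 0.8431 against 0.5144 to 0.6342 in WAT. The ratio of mt-Rnr1 to mt-Rnr2 counts also shifted in liver, from 1.066 and 1.076 in fl/fl on vehicle to 0.8811 to 0.9215 in the other 6, whereas in WAT it spanned 0.4104 to 0.5033 with overlap.

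**Figure D4:**
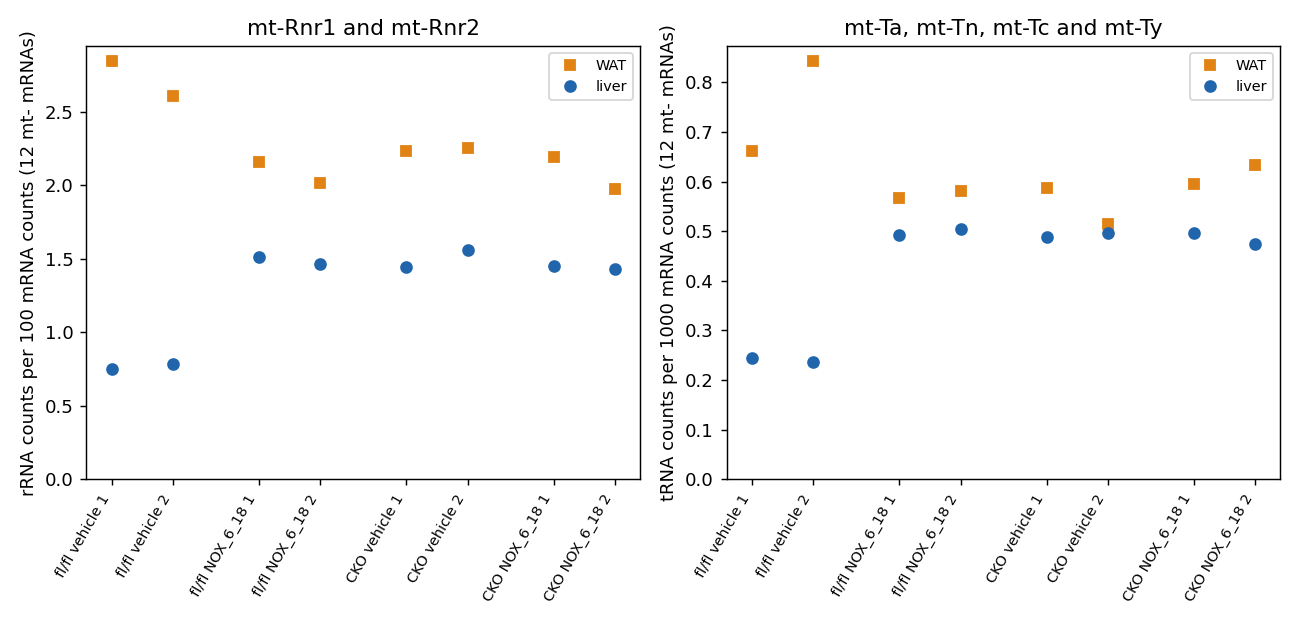
Counts of the 2 rRNAs per 100 counts (left) and of mt-Ta, mt-Tn, mt-Tc and mt-Ty per 1000 counts (right) of the 12 mitochondrial mRNAs other than mt-Atp6, by library, in WAT (squares) and liver (circles). The fl/fl vehicle libraries are lowest in liver (0.7506 and 0.7827 for rRNA) and highest in WAT (2.842 and 2.609).

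Among the 6 liver libraries other than fl/fl on vehicle, no member was called. In liver, NOX_6_18 against vehicle in CKO called 0 of 36 members by edgeR, DESeq2 and limma-voom alike (0.0359% of all genes were called by edgeR), with 1 member, mt-Atp6, at an unadjusted p under 0.05 (4.06% of all genes). Between CKO and fl/fl on NOX_6_18, 0 of 36 were called by each of the 3 tools (0.0359% of all genes by edgeR), with 3 members, mt-Co1, mt-Co3 and mt-Atp6, at an unadjusted p under 0.05 (4.43% of all genes). Here mt-Rnr2 gave -0.03 ± 0.05 and 0.01 ± 0.05 in the 2 comparisons and mt-Tc gave -0.02 ± 0.06 and 0.01 ± 0.06. The treatment by genotype interaction, which is the NOX_6_18 effect in CKO minus that in fl/fl, was negative for 6 members and positive for 2 of 36 (1.87% and 0.584% of all genes). The balance turned with the GC and length trend removed, to 5 negative and 8 positive, and was 11 negative and 1 positive when scaled to the 12 mRNAs. Over all genes these settings gave 380 negative and 129 positive, and 477 and 66. In the main fit the interaction was -1.0 ± 0.08 for mt-Rnr2 (edgeR adjusted p = 0.000398), -0.79 ± 0.07 for mt-Rnr1, -0.96 ± 0.08 for mt-Tc and -0.98 ± 0.09 for mt-Tn. It was -0.92 ± 0.10 for mt-Ty, -0.96 ± 0.13 for mt-Ta, 0.33 ± 0.04 for mt-Co3 and 0.20 ± 0.03 for mt-Co1.

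The liver libraries also differed in cell markers along the same split. Beside the lower rRNA and tRNA levels of fl/fl vehicle liver, 6 Kupffer cell markers summed to 1260 to 1310 CPM against 1540 to 1580 CPM in the other 6, hepatocyte markers to 2690 to 2780 against 2990 to 3080 CPM, and 6 neutrophil markers to 10.2 to 13.7 against 76.9 to 87.0 CPM. Macrophage markers were at 1620 to 1640 against 1570 to 1620 CPM. The part of these cell types in the mitochondrial results was not tested.

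mt-Atp6 split the liver libraries in a way that neither treatment nor genotype label matched. Its raw counts were 259748 and 214658 in fl/fl on vehicle, 1406396 and 1222054 in fl/fl on NOX_6_18, 248593 and 1446262 in CKO on vehicle, and 203924 and 196433 in CKO on NOX_6_18. In 5 libraries it was low and in 3 high, with nothing between, and the 2 libraries of CKO on vehicle fell on opposite sides. On the CPM scale the low libraries had 3856 to 4736 and the high ones 23420, 25140 and 26680.

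Its nuclear copy was even. Gm10925 had 1206579 to 1543646 counts in the 8 liver libraries, and 23450 to 27410 CPM. The ratio of mt-Atp6 to Gm10925 counts was 0.1468 to 0.1728 in the 5 low libraries and 0.9986 to 1.013 in the 3 high ones, and in WAT it was 0.9259 to 0.9392 in all 8 libraries. mt-Atp6 and Gm10925 together summed to 27830 to 32150 CPM in the low liver libraries and to 46870 to 53020 CPM in the high ones, so the sum was uneven too.

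The neighbours on the same precursor did not show the wide split of mt-Atp6. mt-Atp8, which overlaps its start by 43 bases, was at 8666 to 10240 CPM over the 8 liver libraries. mt-Co3, which follows it, split the libraries slightly and in the opposite direction. It was at 21400, 22640 and 23000 CPM where mt-Atp6 was high and at 23170 to 27280 CPM where mt-Atp6 was low. The ratio of mt-Co3 to Gm28437 counts was 0.955 to 1.018 in the former and 1.057 to 1.119 in the latter. mt-Atp6 had 0.4165 to 0.4842 times the counts of mt-Atp8 in the low libraries and 2.626 to 2.857 times in the high ones, against 2.522 to 2.848 times in WAT. Of these 4 genes mt-Atp6 alone varied widely, and the cause of either split was not tested.

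**Figure D5:**
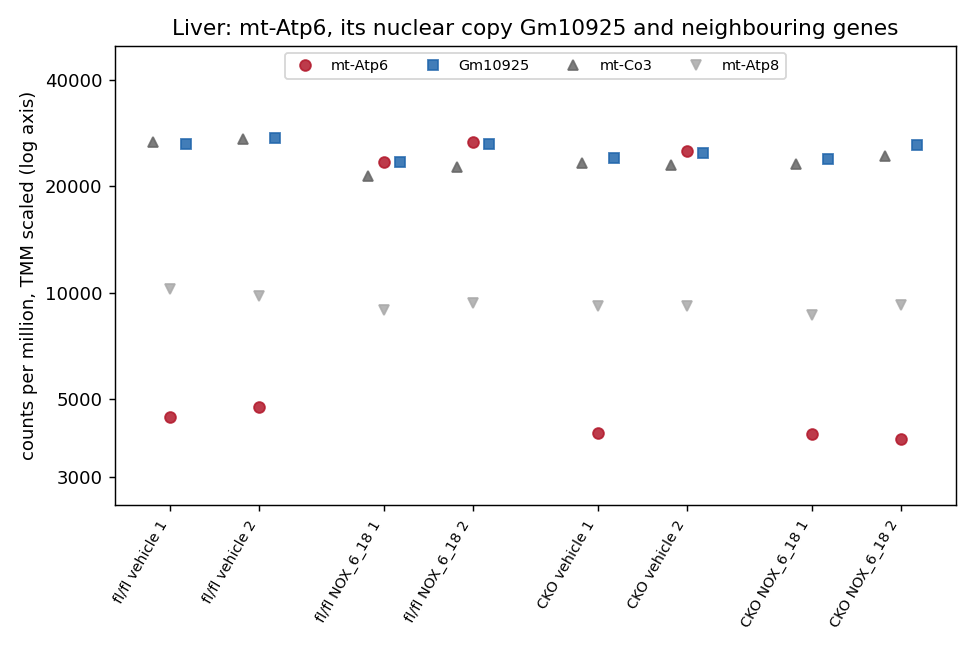
Level in each liver library (vertical axis, TMM-scaled CPM, log axis) of mt-Atp6 (red circles), its nuclear copy Gm10925 (blue squares), and the neighbouring genes mt-Co3 and mt-Atp8 (grey triangles), shifted sideways for legibility. mt-Atp6 lies at 3856 to 4736 CPM in 5 libraries and at 23420 to 26680 CPM in 3, while Gm10925 lies between 23450 and 27410 CPM in all 8.

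In the main edgeR fit none of the 5 liver comparisons called mt-Atp6. The log2 fold change was 2.45 ± 0.65 on NOX_6_18 in fl/fl (adjusted p = 0.0723) and 1.67 ± 0.63 for CKO against fl/fl on vehicle (adjusted p = 0.204). It was -1.90 ± 0.64 on NOX_6_18 in CKO and -2.68 ± 0.65 for CKO against fl/fl on NOX_6_18 (both adjusted p = 1), and the interaction was -4.34 ± 0.91 (adjusted p = 0.0506). The CKO vehicle libraries decided the fold changes of the comparisons that use them, and they enter the shared estimate of spread behind all 5. Without CKO vehicle replicate 1, the low one, CKO against fl/fl on vehicle gave 2.45 (edgeR adjusted p = 3.75e-06), NOX_6_18 in CKO gave -2.68 (7.77e-06) and the interaction -5.13 (5.19e-07). Without CKO vehicle replicate 2, the high one, these gave -0.19 (0.282), -0.04 (1) and -2.49 (3.51e-05). With only the 4 libraries compared in the fit, NOX_6_18 in fl/fl passed at 2.45 (9.2e-05) and CKO against fl/fl on NOX_6_18 at -2.68 (0.000119), since the split CKO vehicle pair then left the estimate of spread. DESeq2 also passed the first, at 2.45 (0.0168), and the interaction, at -4.35 (0.00171). With edgeR both passed when scaled to the 12 mRNAs (adjusted p = 0.0451 and 0.0316) and with no filter (0.00546 and 0.00118). The interaction also passed with library totals (0.0435) and with at least 50 counts in 2 libraries (0.0464). RLE scaling, scaling without mt- genes, limma-voom, a replicate block and the GC and length correction called neither.
In WAT the mt-Atp6 level was 1925 and 1472 CPM for fl/fl on vehicle and 1820 to 2110 CPM in the other 6. No comparison within WAT called it in the main fit. With library totals it passed with NOX_6_18 in fl/fl (0.34, edgeR adjusted p = 0.0356), CKO on vehicle (0.41, 0.0165) and in the interaction (-0.48, 0.0477). After the GC and length correction it passed in the other direction in these comparisons (-0.83, -0.82 and 0.78).

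In WAT, the genes that changed were mRNAs. Of 34 members tested, 8 rose and none fell in fl/fl on NOX_6_18, where 24.6% of all 25871 genes rose and 13.2% fell. In WAT CKO against fl/fl on vehicle, 8 rose and none fell, against 24.4% and 12.4%. These shares are near the background, so the counts are not a result about mitochondrial genes. Within the members, all 8 that rose were among the 13 mRNAs in both comparisons, and 7 were the same genes. None of the 2 rRNAs and 19 tRNAs tested passed, and their median log2 fold changes were -0.12 and -0.09 with NOX_6_18 and 0.05 and 0.04 with CKO, beside 0.25 and 0.30 for the mRNAs.

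mt-Nd4l, a complex I subunit, was at 329.8 and 318.3 CPM in fl/fl vehicle WAT and at 415.2 to 472.4 CPM in the other 6. It rose by 0.53 ± 0.07 on NOX_6_18 in fl/fl (edgeR adjusted p = 0.000371) and by 0.45 ± 0.07 in CKO on vehicle (0.00101). Its nuclear copy Gm10222 gave the same 0.53 ± 0.07 (0.000387) and 0.45 ± 0.07 (0.000984), so the rise cannot be assigned to either gene model alone. With NOX_6_18 in fl/fl, Gm28439 (0.46 ± 0.07) and Gm28661 (0.28 ± 0.09), the copies for mt-Nd4 and mt-Co2, also passed, and the other copies did not. mt-Nd5, another complex I subunit, was at 1770 and 1597 CPM for fl/fl on vehicle and at 2043 to 2203 CPM in the other 6. mt-Cytb was at 3260 and 2724 CPM against 3748 to 4127 CPM, and mt-Co1 at 10670 and 9353 CPM against 11420 to 12710 CPM. For these 4 mitochondrial genes, all of them called, the fl/fl vehicle libraries were low and did not overlap with the others. The same held for 9 of the 37 members and for 21.4% of all WAT genes with a count. These shares are close, so the lack of overlap is not a result about mitochondrial genes. On NOX_6_18 in fl/fl, mt-Nd5 rose by 0.38 ± 0.05, mt-Cytb by 0.37 ± 0.07, mt-Nd4 by 0.37 ± 0.09, mt-Co2 by 0.28 ± 0.09, mt-Nd2 by 0.27 ± 0.09, mt-Co1 by 0.25 ± 0.06 and mt-Atp8 by 0.23 ± 0.07. In CKO on vehicle mt-Co3 (0.26 ± 0.08) passed in place of mt-Atp8 (0.21 ± 0.07, adjusted p = 0.0539).

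These WAT rises depend on the scaling and on the correction for GC content and length. The median of all WAT genes was itself at 0.12 and 0.10 in the 2 comparisons. Scaled to the 12 mRNAs, none of the members rose, while mt-Rnr1, mt-Rnr2 and mt-Tl1 (3 members) fell with NOX_6_18 and mt-Rnr2 and mt-Tl1 (2) with CKO. All the mRNAs that rose are part of the sum used for that scaling, so their joint rise could not appear under it. Over all 25871 genes, that scaling gave 5158 higher and 6622 lower with NOX_6_18 and 5046 and 7363 with CKO. With the GC and length trend removed, 9 rose and 13 fell in each comparison, with mt-Co1 at -0.66 and -0.64 and mt-Cytb at -0.64 and -0.63. Over all genes this correction gave 5017 higher and 9374 lower with NOX_6_18 and 5019 and 9436 with CKO. The all-gene medians were then -0.29 and -0.31, so a downward shift was also seen over all genes. Single libraries also weighed on them: without fl/fl vehicle replicate 1, 12 members rose with NOX_6_18 and 14 with CKO. Without fl/fl NOX_6_18 replicate 1, 4 rose with NOX_6_18, without its replicate 2, 5, and without CKO vehicle replicate 1, 5 rose with CKO. Beside the mRNA levels, 8 adipocyte markers summed to 2220 to 2430 CPM in fl/fl vehicle WAT and 1490 to 1660 CPM in the other 6, although 3 of the 8 rose and 2 fell with NOX_6_18 (median log2 fold change 0.17) and 4 rose and 2 fell with CKO (median 0.22). Summed macrophage markers were 8910 to 9800 against 6280 to 6610 CPM (7 of 10 fell and 1 rose with NOX_6_18, and 8 fell with CKO), and fibroblast markers 16800 to 17100 against 8780 to 8980 CPM (4 of 5 fell in each). Their part in the mitochondrial levels was not tested.

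In WAT too, no member was called among the 6 libraries other than fl/fl on vehicle. There, NOX_6_18 against vehicle in CKO called 0 of 34 members by edgeR, DESeq2 and limma-voom (0.0155% of all genes by edgeR), and CKO against fl/fl on NOX_6_18 called 0 of 34 by the 3 tools (0.0348% of all genes). In both, 0 members had an unadjusted p under 0.05, beside 3.47% and 2.39% of all genes. mt-Nd4l gave -0.03 ± 0.07 and -0.12 ± 0.07. With the fl/fl vehicle libraries left out of the fit, edgeR again called 0 members in these comparisons and in the same comparisons of liver. The interaction was negative for 7 of 34, all mRNAs, and positive for none, where 18.6% and 6.71% of all genes were, with mt-Nd4l at -0.57 ± 0.09 (edgeR adjusted p = 0.00272), mt-Nd5 at -0.41 ± 0.07 and mt-Nd4 at -0.55 ± 0.13. With the GC and length trend removed these became 0.03, 0.50 and 0.52, and the median over all WAT genes went from -0.11 to 0.30.

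The difference of the responses between the tissues was fitted on all 16 libraries, a comparison added after the values were seen. For NOX_6_18 in fl/fl, WAT minus liver, 8 of 36 members were higher and 8 lower (7.52% and 7.2% of all genes). For CKO on vehicle, WAT minus liver, it was again 8 and 8 (7.44% and 6.75%). The 8 lower were mt-Rnr1, mt-Rnr2, mt-Ta, mt-Tn, mt-Tc, mt-Ty, mt-Tw and mt-Tl1, and the 8 higher were mRNAs. mt-Rnr2 differed by -1.09 ± 0.12 and -0.99 ± 0.12 (edgeR adjusted p = 7.31e-05 and 0.000131) and mt-Tn by -1.13 ± 0.12 and -1.11 ± 0.12. mt-Co1 differed by 0.44 ± 0.06 in each.

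The genes that run mitochondrial transcription and RNA turnover are encoded in the nucleus, and few were called. Of 18 genes of mitochondrial transcription and replication, 2 rose in fl/fl liver on NOX_6_18, Mgme1, a mitochondrial exonuclease (0.65 ± 0.13, edgeR adjusted p = 0.0259), and Mterf1a, one of the mouse genes for a factor that binds beside mt-Rnr2 (1.29 ± 0.27, 0.0312). For CKO against fl/fl on vehicle in liver, only Mgme1 of the 18 rose (0.67 ± 0.13). None of 28 measured genes of mitochondrial RNA processing and decay and none of 9 regulators of mitochondrial biogenesis passed in liver in these comparisons, beside 3.78% of all liver genes higher and 1.74% lower with NOX_6_18 and 3.96% and 1.83% with CKO. In WAT on NOX_6_18 in fl/fl, Tfb1m, the methyltransferase that modifies the 12S rRNA, rose by 1.34 ± 0.25 (0.00373), and it rose by 1.25 ± 0.25 in CKO on vehicle.
Of the RNA processing genes, 4 of 28 fell in fl/fl WAT on NOX_6_18, namely Lactb2 (-0.33 ± 0.09), Angel2 (-0.26 ± 0.09), Gtpbp3 (-0.39 ± 0.13) and Pus1 (-0.59 ± 0.20), and 1 of 28, Gtpbp3, in CKO on vehicle (-0.40 ± 0.13). The biogenesis regulators that fell were Esrra (-0.50 ± 0.08 and -0.41 ± 0.08) and Gabpa (-0.22 ± 0.07 and -0.26 ± 0.07) in both comparisons and Yy1 in CKO on vehicle (-0.20 ± 0.06). These counts stand beside the 24.6% and 13.2% of all WAT genes that rose and fell with NOX_6_18 and the 24.4% and 12.4% with CKO.

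Between the tissues on vehicle in fl/fl, 5 of 18 transcription and replication genes were lower in WAT than in liver and none higher, including Mgme1 (-0.91 ± 0.14) and Mterf3 (-0.75 ± 0.12), where 16.5% of all genes were lower and 21.6% higher. Of the 28 RNA processing genes 9 were lower, among them Lactb2 (-0.80 ± 0.08) and Lrpprc, a stabiliser of mitochondrial mRNAs (-0.60 ± 0.10), and 2 were higher, Pde12, which removes poly(A) tails (1.10 ± 0.10), and Rexo2 (0.31 ± 0.09). Of 9 biogenesis regulators 3 were lower, namely Ppara (-2.76 ± 0.43), Ppargc1a (-1.27 ± 0.39) and Gabpb1 (-0.71 ± 0.22). All these differences are smaller than that of mt-Co1.

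Of the members not yet described, mt-Ts1, the serine tRNA that lies on the strand opposite mt-Co1, was at 0.04995 to 0.1324 CPM in liver and at 0 to 0.03934 CPM in WAT, where 3 counts in a library correspond to at most 0.062 CPM. mt-Tf was at 0.1881 and 0.1986 CPM in fl/fl vehicle liver and at 0.5828 to 0.8345 CPM in the other 6, with no overlap, but its log2 fold changes of 1.64 ± 0.51 and 1.96 ± 0.51 did not pass (edgeR adjusted p = 0.118 and 0.0673). mt-Tg, the glycine tRNA, was at 33.9 and 15.36 CPM in fl/fl vehicle liver and at 46.36 to 64.68 CPM in the other 6, and its fold changes of 1.23 ± 0.32 and 1.12 ± 0.32 did not pass either (0.0654 and 0.0899). Over the 37 members, both fl/fl vehicle libraries lay below the other 6 for 16 in liver and 9 in WAT, and above them for 5 and 1, where 8.54% and 21.4% of all genes lay below and 8.96% and 15.1% above.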

How the data were processed

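For each of 16 libraries the deposited file gives read counts per gene, unnormalised. Per the labels' protocols a KAPA stranded kit was used on TRIzol RNA. HISAT, featureCounts 1.5.0, DESeq 1.8.3 and GRCm38 are named per the submitters' processing notes, without roles. Symbols came from GENCODE M21 (55240 of 55421 identifiers, 99.7%). Counts were tested with edgeR 4.0.16 (R 4.3.3): TMM scaling, filterByExpr by group, 1 coefficient per group, quasi-likelihood test, Benjamini-Hochberg adjusted p under 0.05 over all genes. The 8 libraries of a tissue shared 1 fit, and tissue comparisons used all 16. The fit was tested on simulated counts. SE is the log2 fold change divided by the square root of F. Nuclear copies were sought with blastn 2.17.0 among annotated transcripts of genes with counts (at least 100 aligned bases, 90% identity). The text names mt-Atp6 in every comparison, up to 4 called members of smallest adjusted p and up to 4 of largest fold change, up to 4 called genes of each pathway list, and further members by role. The members and lists were chosen with earlier results of these data known. Alternatives were RLE scaling, library totals, scaling without mt- genes or to 12 mRNAs, other filters, DESeq2 1.42.0, limma-voom 3.58.1, a replicate block, only the groups compared, each library left out, and, chosen after seeing the data, a GC and length correction, the mt-Atp6 row and copies left out, and the fl/fl vehicle libraries left out.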

Additional observations from a re-analysis of the deposited data

Results flagged for a closer look

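Some responses differed between genotypes or tissues by a test of the difference itself (edgeR's quasi-likelihood test). In WAT, the NOX_6_18 effect in CKO minus that in fl/fl was -0.57 for mt-Nd4l, -0.41 for mt-Nd5, -0.46 for mt-Cytb, -0.55 for mt-Nd4 and -0.46 for mt-Co2 (log2), with adjusted p from 0.00272 to 0.0355. All of these mRNAs were low in the fl/fl vehicle libraries, and all 5 differences turned positive (0.03 to 0.62) with the GC and length trend removed. That correction also turned the median over all WAT genes, from -0.11 to 0.30. In liver the same difference was -1.0 for mt-Rnr2, -0.79 for mt-Rnr1, -0.96 for mt-Tc, -0.98 for mt-Tn and -0.96 for mt-Ta, with adjusted p from 0.000398 to 0.00694. These 5 kept their sign under every alternative that was run, and mt-Ta lost its call with the GC and length trend removed (-0.65, adjusted p = 0.0604).

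The NOX_6_18 response in fl/fl differed (WAT minus liver) by -1.09 for mt-Rnr2, -1.13 for mt-Tn, -1.01 for mt-Tc, -1.05 for mt-Ta and -1.06 for mt-Tw, while mt-Co1 differed by 0.44. For CKO on vehicle the differences were -1.11 for mt-Tn, -0.99 for mt-Rnr2, -1.13 for mt-Tc, -1.13 for mt-Tw and 0.44 for mt-Co1. With the GC and length trend removed mt-Tn, mt-Tc and mt-Tw no longer passed in either difference, nor did mt-Ta in the first. Scaled to the 12 mRNAs, of which mt-Co1 is a large part, mt-Co1 passed in neither. These rest on 4 groups of 2 libraries each. The fl/fl vehicle group stood apart in both tissues and enters every one of these differences.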

How the results depend on the processing

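All 5 comparisons of the mitochondrial share kept their direction and side of 0.05 in 25 alternatives and 48 permutation tests with a library left out. With libraries exchanged only within a replicate number, the within-tissue tests could not fall under 0.05, so that alternative says nothing of them. The number of members called moved most in WAT. Scaled to the 12 mRNAs, 3 members were called with NOX_6_18 in fl/fl, 2 with CKO on vehicle and 0 in the interaction (edgeR; 1 member, mt-Rnr2, at an unadjusted p under 0.05), against 22, 22 and 16 after the GC and length correction. Over all WAT genes the scaling called 45.5%, 48.0% and 36.8% in these comparisons and the correction 55.6%, 55.9% and 44.9%. The WAT mRNAs called in the main fit are part of the sum used for the scaling, so their joint change could not appear under it. Library totals gave 13 with CKO and 12 in the interaction, and only the groups compared gave 5 with NOX_6_18. In liver the GC correction gave 13 in the interaction, and only the groups compared gave 1 for CKO against fl/fl on NOX_6_18, mt-Atp6. Leaving out 1 library gave 4 to 12, 5 to 14 and 3 to 14 in those WAT comparisons, and 0 to 1 for NOX_6_18 in CKO liver.

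Named genes reversed as follows. Scaled to the 12 mRNAs, mt-Co1 was at -0.02 and -0.02 and mt-Atp6 at -0.09 and -0.07 with NOX_6_18 and CKO in WAT, and mt-Atp6 at 0.07 in the interaction. Between the tissues mt-Co1 was then at 0.08, mt-Nd5 at 0.44, mt-Atp8 at 0.16 and mt-Atp6 at 2.70, beside a median of 5.21 over all genes. mt-Co1, mt-Nd5 and mt-Atp8 are themselves among the 12 mRNAs, so a change common to the 12 could not appear in them. With the GC and length trend removed, WAT values with NOX_6_18 were -0.02 for mt-Nd4l, -0.46 for mt-Nd5, -0.64 for mt-Cytb, -0.66 for mt-Co1, -0.61 for mt-Nd4 and -0.83 for mt-Atp6. With CKO they were -0.17, -0.53, -0.63, -0.64, -0.59 and -0.82 for the same genes and -0.67 for mt-Co2. In the interaction they were 0.03 for mt-Nd4l, 0.50 for mt-Nd5, 0.62 for mt-Cytb, 0.52 for mt-Nd4, 0.61 for mt-Co2 and 0.78 for mt-Atp6. The medians over all WAT genes under that correction were -0.29 with NOX_6_18, -0.31 with CKO and 0.30 in the interaction. Liver mt-Atp6 ran from -0.19 to 2.45 for CKO on vehicle with 1 library left out, and its tissue difference with CKO from -2.19 to 0.45. The causes were not tested. mt-Co1 was 39.66% of the 12 WAT mRNAs by counts.

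With a replicate block the counts called were 8, 9 and 7 in WAT and 15, 16 and 10 in liver for NOX_6_18, CKO and the interaction. Over all genes, same-numbered libraries did not deviate together (correlations of -0.03 to 0.025). Among the 37 members in liver, 16 were lower in library 1 in all 4 groups and 4 were higher, beside 7.18% and 6.0% of all genes. A library's depth limits the low tRNAs, since 3 counts correspond to up to 0.0658 CPM.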

Other observations

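In liver, 20 of the 37 members lay on the same side between the libraries numbered 1 and 2 in all 4 groups, 4 with library 1 higher and 16 with library 1 lower, where 6.0% and 7.18% of the 18074 genes with a count in every liver library did. In WAT it was 6 and 0 of the 36 members with a count in every library, beside 7.1% and 6.21% of 21371 genes. The members share the scaling of each library and are not independent of each other, and the labels do not say that a number marks a shared animal, batch or day. The members with library 1 higher in liver were the tRNAs mt-Tv, mt-Tk, mt-Tg and mt-Tr, and the 16 others included 8 mRNAs, with small ratios such as 0.993, 0.991, 0.969 and 0.962 for mt-Co1. Wider ratios of library 1 to library 2, named after their values were seen, were 2.25, 1.45, 1.64 and 2.03 for mt-Tk, the lysine tRNA, and 2.21, 1.12, 1.21 and 1.40 for mt-Tg, the glycine tRNA. For mt-Th, the histidine tRNA, they were 0.884, 0.534, 0.714 and 0.528, and for mt-Ts2, a serine tRNA, 0.952, 0.534, 0.749 and 0.520. Over all genes the deviations of same-numbered libraries were not correlated (-0.03 to 0.025).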
